A study of Drosophila melanogaster with 17 samples.

Results

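Axon guidance receptors, their ligands and neuronal recognition molecules were followed in the progenitor cells of the adult Drosophila midgut. A list of 38 genes was taken by name, and all 38 were matched to the 17807 genes of the count files. The cells are those in which the escargot driver is active (esg+ cells), mainly stem cells and enteroblasts, sorted by GFP from pools of about 100 midguts. All 6 groups carried esg-Gal4, UAS-GFP and tub-Gal80[ts], were raised at 18 °C and were held at 29 °C for 2 days as adults, which switches UAS transgenes on. Batch 1 held 3 control libraries without a further transgene, 2 libraries with UAS-da and 3 with UAS-da-RNAi. Batch 2 held 3 control libraries, 3 with UAS-da:da, a forced homodimer of Daughterless, and 3 with UAS-scute. Each genotype was compared with the controls of its own batch. Because esg-Gal4 drives the transgenes in stem cells and enteroblasts alike, the data do not separate the effects in either. The flies' age and sex are not given in the sources used here.

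Guidance molecules steer growing axons by attraction, repulsion or selective adhesion, and most have roles outside the nervous system. In the midgut, Slit from enteroendocrine cells, the hormone-secreting cells of the epithelium, has been described to act through Robo2 on stem cells and to limit how many daughters become enteroendocrine. Daughterless (Da) and Scute (Sc) are bHLH transcription factors, and a Da-Sc heterodimer is known for starting both neural and enteroendocrine fates.

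The libraries held 33889877 to 40868714 counted reads in batch 1 and 47136298 to 66679229 in batch 2. The manipulated genes had the labelled direction. The RNA of da was 7.74-fold higher with UAS-da and 4.03-fold lower with da RNAi, and 2.82-fold higher with da:da, while sc was 1164-fold higher with UAS-scute, all counts including reads of the transgenes. The labelled cells were checked by marker lists. The progenitor gene esg was at 618.8 ± 118.5 CPM (counts scaled to the library size, mean ± SD, n = 3) in batch 1 controls and 651 ± 28.8 CPM in batch 2 controls. The 16 enteroendocrine markers summed to 249 to 322 CPM in batch 1 controls and to 4673 to 5167 CPM in batch 2 controls. The hormone gene NPF was the highest of them, at a mean of 59.4 CPM in batch 1 controls and 3776 CPM in batch 2 controls. Cell content, read length and the flies' batch cannot be told apart in this difference. Visceral muscle markers, 12 genes, summed to 18.8 to 51.9 CPM in batch 1 and 92.3 to 180 CPM in batch 2, and the muscle myosin gene Mhc was at 0.112 and 4.85 CPM in the controls. The glial gene repo stayed under 1 CPM in every group mean, while moody, a receptor gene of surface glia, was at 283 ± 8.76 CPM in batch 1 controls and 288 ± 22.8 CPM in batch 2 controls.

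In control cells the guidance genes spanned a wide range of levels. Per exon length, as RPKM (CPM per kilobase of exon), they ran from 0.00318 to 56.4 with a median of 1.83 in batch 1 controls, and from 0.228 to 91.6 with a median of 3.50 in batch 2 controls. The highest in both was caps, which encodes a leucine-rich-repeat adhesion protein, at 56.4 RPKM in batch 1 and 91.6 in batch 2. It was followed by Sema2a, which encodes a secreted semaphorin, at 34.97 and 55.3 RPKM. Both sli, at 32.6 RPKM in batch 2, and drl, at 31.6 RPKM in batch 1, ranked next in 1 batch only. Of the others, trn, a gene related to caps, was at 25.8 and 28.4 RPKM, Fas2, which encodes the fly NCAM, at 22.8 and 23.1 RPKM, and the netrin receptor gene fra at 13.7 and 15.5 RPKM. The levels of trn and Fas2 overlapped between batch 1 control libraries, at 18.2 to 39.5 and 18.6 to 26.4 RPKM, and nearly met in batch 2, at 25.6 to 32.5 and 20.9 to 25.5 RPKM. Of the 38 genes, 10 had a mean under 1 CPM in batch 1 controls and 1 in batch 2 controls.

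**Figure D1:**
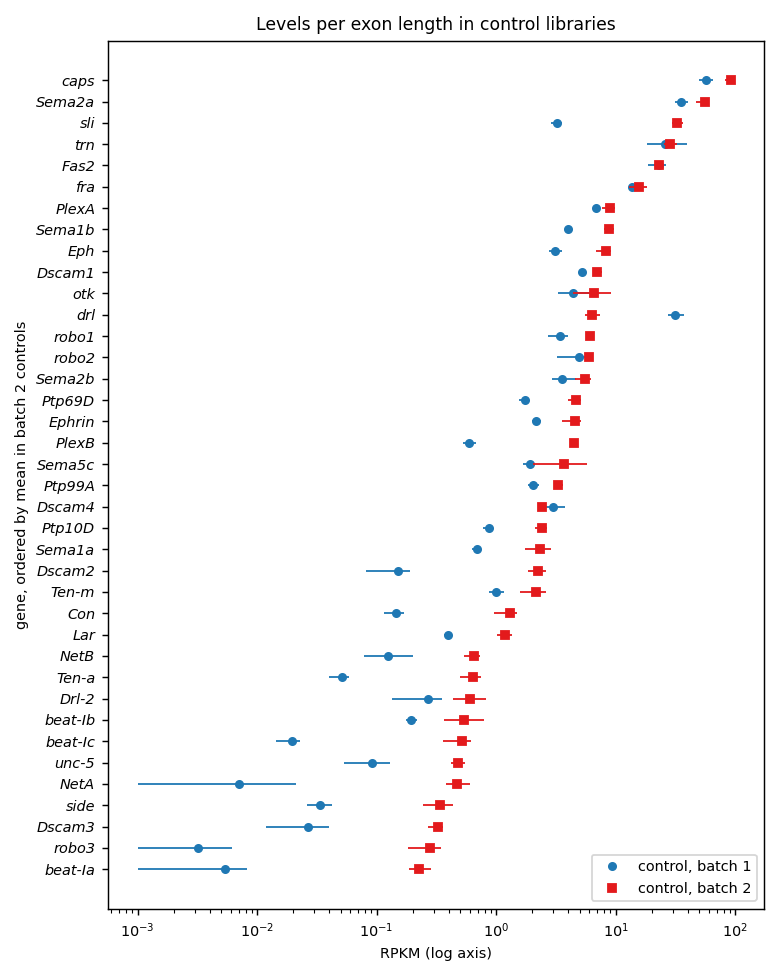
RPKM on a log axis for the 38 guidance genes in 3 control libraries of each batch (points, means; lines, lowest to highest library, drawn from 0.001 where a library held no read). The top of the order is shared by both batches, with caps highest, while sli and drl lie far apart between batches.

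Some genes had very different control levels in the 2 batches. The RNA of sli was at 31.1, 27.8 and 34.1 CPM in batch 1 controls and 301, 354 and 284 CPM in batch 2 controls. Conversely, drl was at 84.8, 94.0 and 115 CPM in batch 1 controls and 18.5, 17.1 and 22.9 CPM in batch 2 controls. In all, 36 of 38 genes had the higher mean in batch 2, and the share over all genes was not counted. Control libraries held reads of 11956 to 12210 genes in batch 1 and of 15858 to 16080 in batch 2. CPM were scaled in each batch apart, with control scaling factors (TMM) of 1.06 to 1.174 in batch 1 and 0.8623 to 0.9068 in batch 2. Read length, pairing of reads, this scaling and the flies' batch differ together here and cannot be told apart. Levels are therefore compared only within a batch.

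The number of guidance genes that changed depended on the genotype. Calls were made where the p-value, adjusted by Benjamini and Hochberg over every gene tested, lay under 0.05. With scute, 20 of 38 tested genes rose and 6 fell, 68.4% against 45% of all 14190 genes tested. The share that rose was 52.6%, against 22.8% of all genes, and the share that fell was 15.8%, against 22.2%. With da:da, 5 of 38 rose and 3 fell, 21.1% against 11.9% of all genes. Over all genes tested, 5.39% rose and 6.52% fell. In the da knock-down, 2 of 34 rose and 6 fell, 23.5% against 20.4% of all genes. Among all genes, 11.2% rose and 9.16% fell. With monomeric da 3 of 34 rose and 1 fell, 11.8% against 22.9% of all genes. Over all genes tested, 13.5% rose and 9.36% fell. Among the guidance genes tested in batch 1, 8.82% rose and 2.94% fell with da, and 5.88% rose and 17.6% fell in the knock-down. The median log2 change of the guidance genes was 0.58 with scute, -0.02 with da:da, -0.15 in the knock-down and 0.05 with da, beside medians over all genes of 0.05, -0.01, -0.01 and -0.02. These shares and medians are descriptions, and no test of the list was made. The shares also depend on which genes are kept. With a stricter filter (at least 5 CPM), 24 of 33 guidance genes were called with scute (19 higher, 5 lower), against 5114 of all 7303 genes. For da:da it was 8 of 33 against 1549 of 7303, so in both genotypes the share lay nearer to that of all genes. In the knock-down it was 6 of 24 against 1538 of 6331, and with da 3 of 24 against 1633 of 6331. The 4 genes not tested in batch 1, NetA, robo3, beat-Ia and beat-Ic, had too few counts there.

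**Figure D2:**
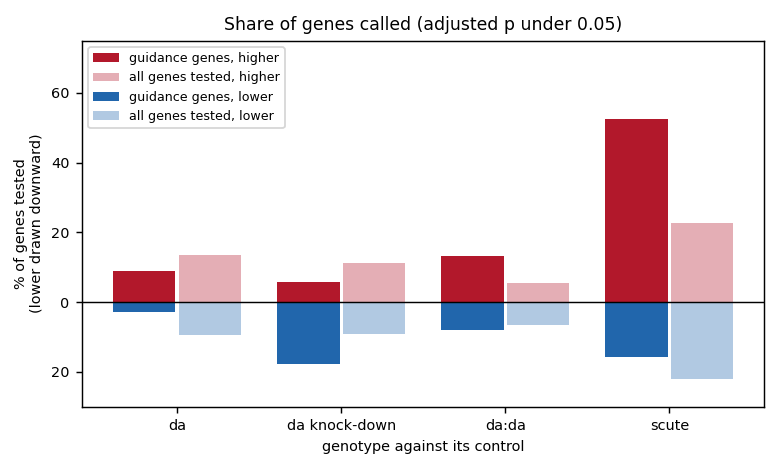
Share of genes tested that were called higher (drawn upward) or lower (drawn downward), in percent, for the guidance genes (dark bars) and for all genes tested (pale bars), in each genotype against its control. With scute the guidance genes reached 52.6% higher against 22.8% of all genes.

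The call counts of batch 2 held when single libraries were left out, with 24 to 26 genes for scute and 8 to 10 for da:da. Those of batch 1 depended on single libraries. The knock-down count of 8 genes was 3 without control replicate 1, 2 without control replicate 2, 4 without knock-down replicate 1 and 5 without knock-down replicate 2 or 3. The calls over all genes fell as well, from 1947 to 1095, 937, 1309, 1316 and 1498 in the same order. The da count of 4 genes was 2 without control replicate 1 and 2 without da replicate 2. Over all genes the da calls fell from 2185 to 1538 and 1339 in these runs. In the authors' deposited table, which gives adjusted p-values of DESeq2, 20 of the 38 genes were higher and 6 lower with scute, 5 and 4 with da:da, 5 and 8 in the knock-down, and 5 and 5 with da.

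Scute raised markers of enteroendocrine and neuronal type together with the guidance genes. Of 16 enteroendocrine markers, 14 rose and 2 fell, and they summed to 8338 to 14930 CPM against 4673 to 5167 CPM in controls. The enteroendocrine regulator pros went from 39.9 ± 4.24 to 547 ± 99.7 CPM (13.7-fold, adjusted p = 1.14e-08). The RNA-binding protein gene elav, used as a neuronal marker, went from 27.6 ± 1.94 to 72.4 ± 3.71 CPM, and brp, of the presynaptic active zone, from 11.3 ± 0.874 to 70.1 ± 16.5 CPM. Of 11 neuronal and glial markers, 7 rose and 2 fell, and the summed level was 540 to 574 CPM against 415 to 455 CPM in controls. Of 12 visceral muscle markers, 2 rose and 0 fell, with sums of 99.5 to 166 CPM against 92.3 to 115 CPM. In bulk libraries a change in the number of cells of one type and a change of RNA per cell cannot be told apart, and the part of these cell types in the guidance gene changes was not tested. Of 11 progenitor markers, 4 rose and 6 fell with scute, with sums of 1548 to 2058 CPM against 2568 to 2941 CPM, and esg was lower (log2 change -0.44, adjusted p = 0.0251). The glial marker moody went against the list and fell 2.59-fold, to 111 ± 14.3 CPM (adjusted p = 1.5e-06).

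With da:da, 4 of 11 progenitor markers rose and 0 fell, with sums of 4069 to 4130 CPM, and esg was higher (log2 change 0.51, adjusted p = 0.038). The enteroendocrine sum was 5627 to 9839 CPM, with 1 marker higher and 3 lower. Of the neuronal and glial markers 2 rose and 1 fell, with sums of 591 to 673 CPM, and moody rose 1.56-fold to 449 ± 29.8 CPM (adjusted p = 0.00282).

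With da, 6 of 15 enteroendocrine markers tested fell and 1 rose, with sums of 143 to 620 CPM, and pros was 3.72-fold lower (adjusted p = 0.00927). Visceral muscle markers rose for 4 of 8 and fell for 0, with sums of 41.04 to 51.9 CPM against 23.35 to 30.5 CPM, and Mhc went from 0.112 ± 0.019 to 0.642 ± 0.0135 CPM (5.61-fold, adjusted p = 0.00742). Progenitor markers rose for 4 of 11 and fell for 0, with sums of 2472 to 3328 CPM against 1856 to 2202 CPM. The neuronal and glial sum was 504 to 513 CPM against 352 to 379 CPM, most of it moody, which went up to 407 ± 6.40 CPM (adjusted p = 0.0287).

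In the knock-down, 8 of 15 enteroendocrine markers fell and 0 rose, with sums of 153 to 288 CPM, and pros went from 10.02 ± 4.43 to 1.51 ± 0.36 CPM (6.61-fold lower, adjusted p = 0.00116). Enterocyte markers rose for 5 of 12 and fell for 0, with sums of 907 to 1682 CPM against 497 to 868 CPM. Progenitor markers rose for 1 of 11 and fell for 5, with sums of 1886 to 2039 CPM, and esg was lower (log2 change -0.53, adjusted p = 0.0342). The part of these cell types in the guidance gene changes of da:da, da and the knock-down was not tested either.

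**Figure D3:**
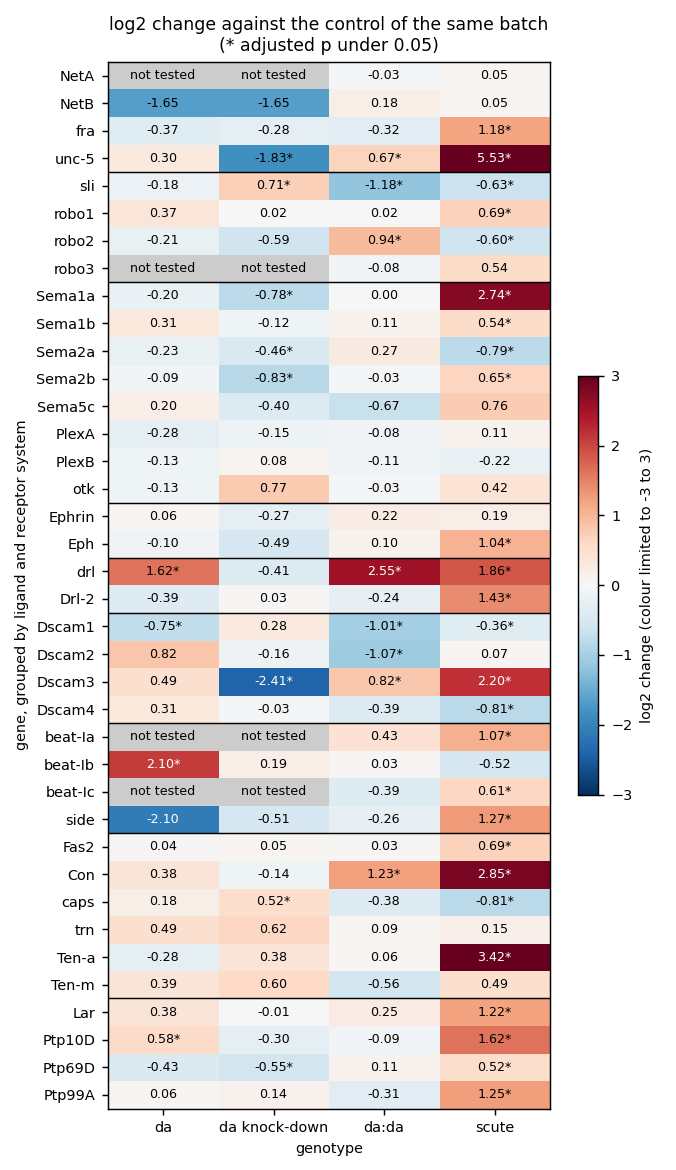
Log2 change of each guidance gene against the control of the same batch, with genes in rows grouped by ligand and receptor system and genotypes in columns; an asterisk marks an adjusted p under 0.05 and grey cells were not tested. The scute column holds 20 rises and 6 falls, and drl is marked in the da, da:da and scute columns.

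Among netrin receptors, unc-5 had the largest change with scute of all 38 genes. Netrins are secreted cues. The receptor Frazzled (fra, 2R, 12529053 to 12564184 of BDGP6.28), the fly DCC, mediates attraction, and Unc-5 (2R, 15340472 to 15368300) mediates repulsion. In batch 2 controls unc-5 was at 2.20, 2.501 and 2.85 CPM, with da:da at 3.41, 3.88 and 4.70 CPM, and with scute at 124, 122 and 104 CPM. No library of one genotype overlapped with another. The rise with scute was 46.4-fold (log2 change 5.53 ± 0.16 SE, adjusted p = 6.57e-10), and scute exceeded da:da by 29.2-fold (adjusted p = 1.17e-09). With da:da the rise was 1.59-fold (0.67 ± 0.15, adjusted p = 0.0106, and 0.0586 in a fit of the compared groups).

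The receptor fra was at 82.3, 116 and 96.0 CPM in batch 2 controls and at 232, 215 and 220 CPM with scute. All scute libraries lay above all controls, a 2.27-fold rise (log2 change 1.18 ± 0.13, adjusted p = 1.1e-05). With da:da fra was at 70.1, 84.1 and 81.9 CPM and did not pass (-0.32, adjusted p = 0.145, and 0.047 without control replicate 1). Per exon length, the ratio of unc-5 to fra was 0.026 to 0.0359 in controls, 0.0556 to 0.0693 with da:da and 0.571 to 0.687 with scute. In batch 1 fra was at 88.7, 83.9 and 86.4 CPM in controls and 62.4 and 70.7 CPM with da. It was at 65.3, 65.0 and 83.6 CPM in the knock-down. With da it did not pass (-0.37, adjusted p = 0.093, and 0.0452 in a fit of all 17 libraries). The knock-down did not pass either (-0.28, adjusted p = 0.164, and 0.0498 without knock-down replicate 3).

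In batch 1, unc-5 was close to the limit of detection. It had 20, 30 and 11 reads in the controls, 15 and 32 with da, and 2, 5 and 6 in the knock-down. The knock-down value was 3.56-fold lower (log2 change -1.83 ± 0.56, adjusted p = 0.0449), and it did not pass without control replicate 1 (0.101) or 2 (0.171), knock-down replicate 1 (0.129), 2 (0.0963) or 3 (0.0555), or da replicate 2 (0.0523), with the replicate numbers as a block (0.0588) or with DESeq2 (0.065). With da, unc-5 did not pass (0.30, adjusted p = 0.735). Batch 1 control and knock-down libraries of the same number deviated together, so values with that block are given wherever they change a call of the knock-down. The ligand genes NetA and NetB passed in no comparison with controls. In batch 2 NetA was between 1.28 and 2.03 CPM and NetB between 4.28 and 6.97 CPM in all 9 libraries. In batch 1 NetB was at 0.759, 1.63 and 0.635 CPM in controls and at 0.142, 0.585 and 0.234 CPM after da RNAi (-1.65, adjusted p = 0.0696, and 0.0352 with the replicate block). With da it was at 0.301 and 0.337 CPM, also below all controls (log2 change -1.65 ± 0.65, adjusted p = 0.0997).

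The Slit and Robo genes moved differently from each other. Slit (sli, 2R, 15869495 to 15922118) is the secreted repellent and Robo1 (2R, 22692524 to 22700970), Robo2 (2L, 1380086 to 1420453) and Robo3 are its receptors. The ligand gene sli was at 301, 354 and 284 CPM in batch 2 controls, at 120, 145 and 148 CPM with da:da and at 180, 180 and 246 CPM with scute. Controls were highest, with no overlap. Sli fell 2.27-fold with da:da (log2 change -1.18 ± 0.15, adjusted p = 0.000198) and 1.55-fold with scute (-0.63 ± 0.14, adjusted p = 0.00317), and scute lay above da:da (0.55 ± 0.14, adjusted p = 0.00828).

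In batch 1, sli was at 31.1, 27.8 and 34.1 CPM in controls, 23.8 and 31.1 CPM with da, and 43.6, 48.1 and 60.4 CPM in the knock-down. The knock-down libraries lay above all others of the batch. The rise was 1.63-fold (log2 change 0.71 ± 0.16, adjusted p = 0.0129, and 0.0675 without control replicate 2), while the change with da did not pass (-0.18, adjusted p = 0.522). The change with da:da was lower than that with da by a log2 difference of 0.94, written as da:da minus da at -0.94 ± 0.23 (adjusted p = 0.0189). These genotypes lie in different batches, so batch and genotype cannot be told apart in this difference.

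Robo2 was the receptor that rose with da:da and fell with scute. It was at 40.3, 37.0 and 34.5 CPM in batch 2 controls, at 73.9, 81.7 and 59.2 CPM with da:da, and at 27.95, 22.8 and 22.9 CPM with scute. The 3 groups did not overlap. The rise with da:da was 1.92-fold (log2 change 0.94 ± 0.13, adjusted p = 0.000546), the fall with scute 1.52-fold (-0.60 ± 0.13, adjusted p = 0.00259, and 0.0597 in a fit of all 17 libraries), and scute lay 2.92-fold below da:da (adjusted p = 2.24e-06). Of the robo2 exon bases, 41% are shared with the long non-coding RNA genes lncRNA:CR44898 and asRNA:CR44897. Reads there were left out as ambiguous, so the level of robo2 is understated in every group.

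Robo1 took another course. It was at 41.9, 40.5 and 41.4 CPM in batch 2 controls, at 38.9, 45.7 and 40.6 CPM with da:da, and at 69.2, 64.7 and 65.3 CPM with scute. It rose with scute by 1.61-fold (log2 change 0.69 ± 0.09, adjusted p = 5.51e-05) and did not pass with da:da (0.02, adjusted p = 0.95). Per exon length, the ratio of robo2 to robo1 was therefore 0.913 to 1.05 in controls, 1.60 to 2.08 with da:da and 0.384 to 0.442 with scute. Because the robo2 level is understated, this ratio serves to compare groups and does not give the true balance of the receptors. In batch 1 neither passed, and robo2 varied widely, at 36.5 and 16.3 CPM in the 2 da libraries. Robo3 did not pass with da:da or scute and was not tested in batch 1. There it had 0, 2 and 1 reads in controls, 0 and 3 with da, and 0 in the 3 knock-down libraries.

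**Figure D4:**
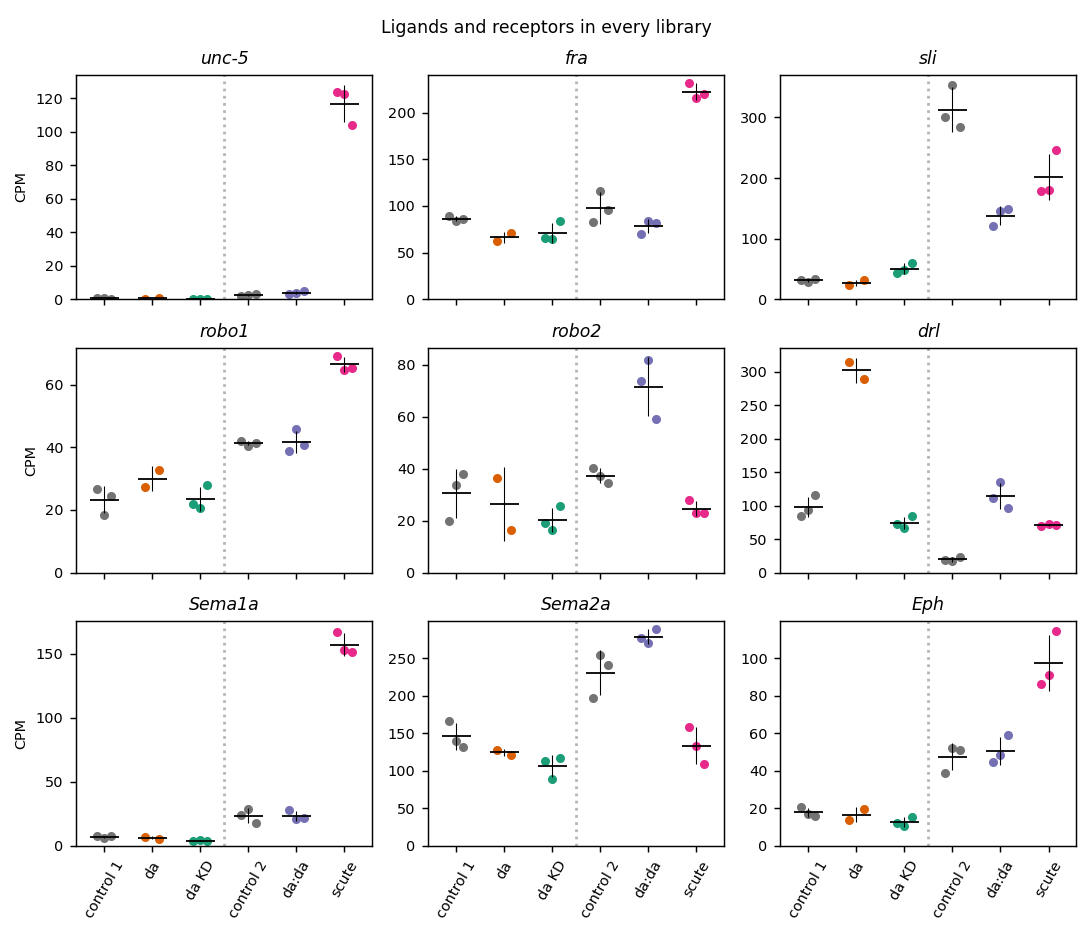
CPM of 9 guidance ligands and receptors in every library (points), with the group mean (horizontal line) and SD (vertical line); control 1 and control 2 are the controls of the batches left and right of the dotted line. The scute libraries stand alone for unc-5, fra and Sema1a, da:da for robo2, and drl is above its control in the da, da:da and scute libraries.

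Of the 5 semaphorin genes, Sema1a, Sema1b, Sema2a and Sema2b passed in at least 1 comparison with controls, while Sema5c and both plexin genes did not. Sema1a and Sema1b encode transmembrane semaphorins, Sema2a and Sema2b secreted ones, and Plexin A and Plexin B are their receptors. Sema1a (2L, 8542147 to 8672041) was at 23.7, 29.1 and 17.6 CPM in batch 2 controls, at 27.7, 20.9 and 21.5 CPM with da:da and at 167, 153 and 151 CPM with scute. Only the scute libraries of that batch stood apart, with a rise of 6.70-fold (log2 change 2.74 ± 0.18, adjusted p = 2.01e-07). In batch 1 it was at 7.33, 6.33 and 7.34 CPM in controls and 4.08, 4.15 and 3.97 CPM in the knock-down, a fall of 1.72-fold (-0.78 ± 0.16, adjusted p = 0.00913).

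The secreted semaphorins went opposite ways with scute. Sema2a was at 197, 254 and 241 CPM in controls, at 276, 270 and 289 CPM with da:da and at 159, 132 and 109 CPM with scute. It fell 1.73-fold with scute (log2 change -0.79 ± 0.14, adjusted p = 0.000527). Sema2b rose from 23.8, 31.9 and 29.4 CPM to 47.8, 44.7 and 41.4 CPM (0.65 ± 0.12, adjusted p = 0.000757). In both cases the scute and control libraries did not overlap.

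Both secreted semaphorin genes were lower in the knock-down, with calls that rested on few libraries. Sema2a went from 166, 140 and 132 CPM to 113, 89.2 and 116 CPM (log2 change -0.46 ± 0.14, adjusted p = 0.0455). That call did not survive leaving out control replicate 1 (0.161) or 2 (0.109), da replicate 1 (0.0542) or 2 (0.0555), or knock-down replicate 1 (0.073), 2 (0.138) or 3 (0.0551). Sema2b went from 15.2, 15.5 and 24.2 CPM to 8.61, 10.8 and 11.4 CPM (-0.83 ± 0.22, adjusted p = 0.026), and leaving out control replicate 3 (0.0618), or the first (0.0838) or second (0.0593) knock-down library, ended the call. Sema1b was 1.46-fold higher with scute (0.54 ± 0.09, adjusted p = 0.000444), at 58.8, 56.75 and 60.5 CPM against 36.3, 40.3 and 44.15 CPM in controls. Sema5c, PlexA, PlexB and otk, a transmembrane pseudokinase gene, passed in no comparison with controls. Their log2 changes over all 4 comparisons lay between -0.28 and 0.11 for PlexA, -0.22 and 0.08 for PlexB, -0.13 and 0.77 for otk, and -0.67 and 0.76 for Sema5c. With the replicate block otk was called higher in the knock-down (0.75 ± 0.10, adjusted p = 0.00273).

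The receptor gene drl rose in all 3 gain-of-function genotypes. Derailed (drl, 2L, 19190342 to 19208621) is a receptor of the Ryk family that binds Wnt5. In batch 1 drl was at 84.8, 94.0 and 115 CPM in controls, 315 and 289 CPM with da, and 72.0, 65.8 and 84.0 CPM in the knock-down. In batch 2 it was at 18.5, 17.1 and 22.9 CPM in controls, 112, 135 and 96.9 CPM with da:da, and 69.9, 72.5 and 70.4 CPM with scute. In each of the 3 genotypes the lowest library was above the highest control.

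The rises of drl were 3.08-fold with da (log2 change 1.62 ± 0.16, adjusted p = 0.000113), 5.88-fold with da:da (2.55 ± 0.14, adjusted p = 2.96e-07) and 3.64-fold with scute (1.86 ± 0.14, adjusted p = 6.38e-07), the last 2 against the same controls. The change with da:da exceeded that with da by 1.00 ± 0.21 on the log2 scale (adjusted p = 0.00675), and scute lay below da:da by 1.62-fold (adjusted p = 0.00124). Scute and da did not pass a test of their difference (difference 0.28 ± 0.21, adjusted p = 0.371). The da libraries lie in another batch than those of da:da and scute, with mean drl in controls at 97.98 against 19.5 CPM. Batch and genotype cannot be told apart in the differences from da. In the knock-down drl did not pass (-0.41 ± 0.15, adjusted p = 0.0804), although it did with the replicate block (-0.40 ± 0.11, adjusted p = 0.0369) and with DESeq2 (0.0365). Its relative Drl-2 passed with scute and in no other comparison with controls, from 4.94, 3.37 and 2.63 CPM to 8.91, 9.66 and 10.9 CPM (1.43 ± 0.24, adjusted p = 0.0004), and scute exceeded da:da (1.66 ± 0.24, adjusted p = 0.000151).

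Of the ephrin pair, the receptor tyrosine kinase gene Eph (chromosome 4, 610684 to 622470) rose with scute and its membrane ligand gene Ephrin passed nowhere. Eph was at 39.1, 52.3 and 50.9 CPM in controls, at 44.4, 48.5 and 59.0 CPM with da:da, and at 86.4, 91.2 and 115 CPM with scute. The scute libraries lay above the others, a 2.05-fold rise (log2 change 1.04 ± 0.15, adjusted p = 0.000129). The changes of Ephrin lay between -0.27 and 0.22 on the log2 scale.

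The 4 Dscam genes, which encode immunoglobulin-family receptors for self-avoidance and tiling, divided by member. Dscam1 (2R, 7317924 to 7381899) was at 174, 203 and 179 CPM in batch 2 controls, 98.1, 92.1 and 86.0 CPM with da:da and 164, 146 and 122 CPM with scute. It fell 2.01-fold with da:da (log2 change -1.01 ± 0.12, adjusted p = 0.000144). With scute it was 1.29-fold lower (-0.36 ± 0.12, adjusted p = 0.0243), which did not pass when control replicate 2 (0.11) was left out, or scute replicate 2 (0.0623) or 3 (0.0898) and with the stricter filter (0.0575).

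In batch 1 Dscam1 was at 134, 135 and 146 CPM in controls, 93.7 and 71.4 CPM with da and 169, 149 and 188 CPM in the knock-down. It fell with da by 1.68-fold (log2 change -0.75 ± 0.16, adjusted p = 0.00851, and 0.07 without da replicate 2), and da lay 2.04-fold below the knock-down (adjusted p = 0.0011). The knock-down did not pass against controls (0.28, adjusted p = 0.185). Counts sum over the many splice forms of this gene, which gene counts do not resolve.

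Dscam2 fell with da:da, from 28.1, 23.9 and 33.8 CPM to 14.9, 11.8 and 14.2 CPM (log2 change -1.07 ± 0.14, adjusted p = 0.000404), and scute left it at 27.7, 30.6 and 31.8 CPM. The da:da change of Dscam2 was lower than the da change (-1.83 ± 0.38, adjusted p = 0.00575), although Dscam2 had only 46 to 104 reads in batch 1 controls. Batch and genotype cannot be told apart in this difference either. Dscam3 rose with da:da from 2.95, 3.05 and 2.28 CPM up to 4.66, 4.51 and 5.40 CPM (0.82 ± 0.18, adjusted p = 0.0111, and 0.0694 in a fit of all 17 libraries) and with scute to 10.6, 12.3 and 15.2 CPM (2.20 ± 0.18, adjusted p = 1.43e-06). Its libraries were ordered control, da:da and scute with no overlap.

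In the knock-down Dscam3 rested on 2, 1 and 1 reads against 10, 15 and 4 in controls (log2 change -2.41 ± 0.74, adjusted p = 0.0456). The call did not survive leaving out control replicate 1 (0.104) or 2 (0.162), any knock-down replicate (0.0866 to 0.129) or with DESeq2 (0.107). Dscam4 fell with scute, from 19.96, 19.99 and 17.8 CPM to 11.4, 12.8 and 8.88 CPM (-0.81 ± 0.14, adjusted p = 0.000517).

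The Beat and Side genes were expressed at low levels. Beat-Ia is a secreted anti-adhesive protein that lets motor axons leave their bundle, and Side, on the target muscles, binds it. Side (3R, 27375088 to 27437482) was at 5.13, 3.96 and 2.83 CPM in batch 2 controls and at 9.63, 11.95 and 7.21 CPM with scute, a 2.42-fold rise (log2 change 1.27 ± 0.23, adjusted p = 0.000728). With da it did not pass (-2.10, adjusted p = 0.149, 0.0246 without knock-down replicate 2 and 0.03275 in a fit of the compared groups). The knock-down did not pass either (-0.51, adjusted p = 0.684, and 0.0304 without knock-down replicate 2). Both rest on 2 to 23 reads per library in batch 1.

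With scute, beat-Ia rose from 0.812, 0.615 and 0.536 CPM to 1.41, 1.43 and 1.28 CPM (log2 change 1.07 ± 0.23, adjusted p = 0.00256). Beat-Ic was at 3.01, 2.93 and 1.76 CPM in controls and 4.03, 3.95 and 3.79 CPM with scute (0.61 ± 0.23, adjusted p = 0.0462), and this call did not survive leaving out control replicate 2 (0.0551) or 3 (0.153), da:da replicate 3 (0.0537) or any scute replicate (0.0725 to 0.105), nor a fit of all 17 libraries (0.14) or of the compared groups (0.0519). Beat-Ib was higher with da, at 1.09 and 3.26 CPM against 0.498, 0.567 and 0.457 CPM (2.10 ± 0.51, adjusted p = 0.0152). The 2 da libraries differed from each other, and the call was lost without control replicate 1 (0.0511) or da replicate 2 (0.201).

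Among adhesion genes, Con and Ten-a had the largest rises with scute. Connectin (Con, 3L, 4936758 to 5079033) is a homophilic leucine-rich-repeat protein of motor axons and muscles, and Ten-a (X, 12043698 to 12335214) is a teneurin, which matches synaptic partners. Con was at 8.71, 8.84 and 5.70 CPM in controls, at 19.9, 17.6 and 16.9 CPM with da:da and at 56.4, 55.1 and 55.9 CPM with scute. The 3 groups did not overlap. The rises were 2.34-fold with da:da (log2 change 1.23 ± 0.16, adjusted p = 0.00025) and 7.203-fold with scute (2.85 ± 0.16, adjusted p = 8.42e-08), and scute exceeded da:da by 3.08-fold (adjusted p = 4.34e-06).

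Ten-a was at 11.5, 12.7 and 8.52 CPM in controls, 12.9, 10.3 and 10.97 CPM with da:da, and 119, 120 and 111 CPM with scute. The rise with scute was 10.7-fold (log2 change 3.42 ± 0.15, adjusted p = 1.54e-08), and da:da did not pass (0.06, adjusted p = 0.867). The other teneurin gene, Ten-m, passed in no comparison with controls (-0.56 to 0.60 over the 4). Scute and da:da differed for it, by 2.06-fold (adjusted p = 0.00243).

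The more abundant adhesion genes moved less. Fas2 was at 153, 168 and 186 CPM in controls and 296, 268 and 256 CPM with scute (log2 change 0.69 ± 0.11, adjusted p = 0.000225). Caps (3L, 13228692 to 13279642) fell with scute, from 396, 458 and 477 CPM to 277, 243 and 240 CPM (-0.81 ± 0.12, adjusted p = 0.000171), and did not pass with da:da (-0.38, adjusted p = 0.0719, and 0.0312 without da:da replicate 3). In the knock-down caps was higher, at 397, 363 and 416 CPM against 263, 242 and 315 CPM (0.52 ± 0.13, adjusted p = 0.0214), which did not pass when control replicate 1 (0.0815) or 2 (0.112) was left out, nor on leaving out knock-down replicate 1 (0.0595) or 3 (0.0653). Its relative trn passed in no comparison with controls, with log2 changes of 0.09 to 0.62, but was called higher in the knock-down with the replicate block (0.69 ± 0.15, adjusted p = 0.0146).

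The receptor tyrosine phosphatases rose with scute, all 4 of 4, beside 22.8% of all genes tested. Ptp10D (X, 11622015 to 11677338) was at 18.4, 22.1 and 23.0 CPM in controls, 17.5, 18.7 and 23.6 CPM with da:da, and 69.1, 63.2 and 63.0 CPM with scute (3.07-fold, log2 change 1.62 ± 0.13, adjusted p = 1.2e-06). Ptp99A (3R, 29377646 to 29487131) was at 27.6, 33.2 and 29.8 CPM in controls and 69.7, 69.4 and 75.9 CPM with scute (2.37-fold, log2 change 1.25 ± 0.12, adjusted p = 4.28e-06). Ptp69D was at 20.6, 24.9 and 26.5 CPM in controls and 34.1, 32.5 and 36.6 CPM with scute (1.43-fold, log2 change 0.52 ± 0.12, adjusted p = 0.00356). No da:da change of a phosphatase gene passed, although that of Ptp99A (-0.31, adjusted p = 0.128) passed without da:da replicate 3 (0.0422).

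Lar (2L, 19586623 to 19732069) was 2.32-fold higher with scute (log2 change 1.22 ± 0.14, adjusted p = 1.82e-05), at 27.6, 26.5 and 30.9 CPM against 12.2, 13.9 and 10.5 CPM. Of its exon bases 83.6% are shared with CG46244 on the same strand, where reads were left out as ambiguous, so its counts come from the small remainder and its level is understated. Of the Ptp99A exon bases 17.2% are shared with CG2321 on the opposite strand. In batch 1 Ptp10D was higher with da, at 12.8 and 9.93 CPM against 6.76, 7.78 and 8.21 CPM (0.58 ± 0.17, adjusted p = 0.0373), which did not pass when control replicate 1 (0.121) or 2 (0.0973) was left out, or da replicate 1 (0.181), without a filter (0.0576) and in a fit of the compared groups (0.0761). Ptp69D was lower in the knock-down, at 6.60, 5.79 and 5.84 CPM against 9.37, 9.42 and 7.98 CPM (-0.55 ± 0.14, adjusted p = 0.0232), which did not hold on leaving out knock-down replicate 2 (0.0785) or 3 (0.0655), or replicate 1 (0.0853) or 2 (0.101) of the controls. With da Ptp69D was at 6.66 and 6.54 CPM, also below all controls. That change did not pass (-0.43 ± 0.16, adjusted p = 0.0786, and 0.0228 in a fit of all 17 libraries). Da and the knock-down did not pass a test of their difference in Ptp69D (0.12 ± 0.16, adjusted p = 0.62).

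**Figure D5:**
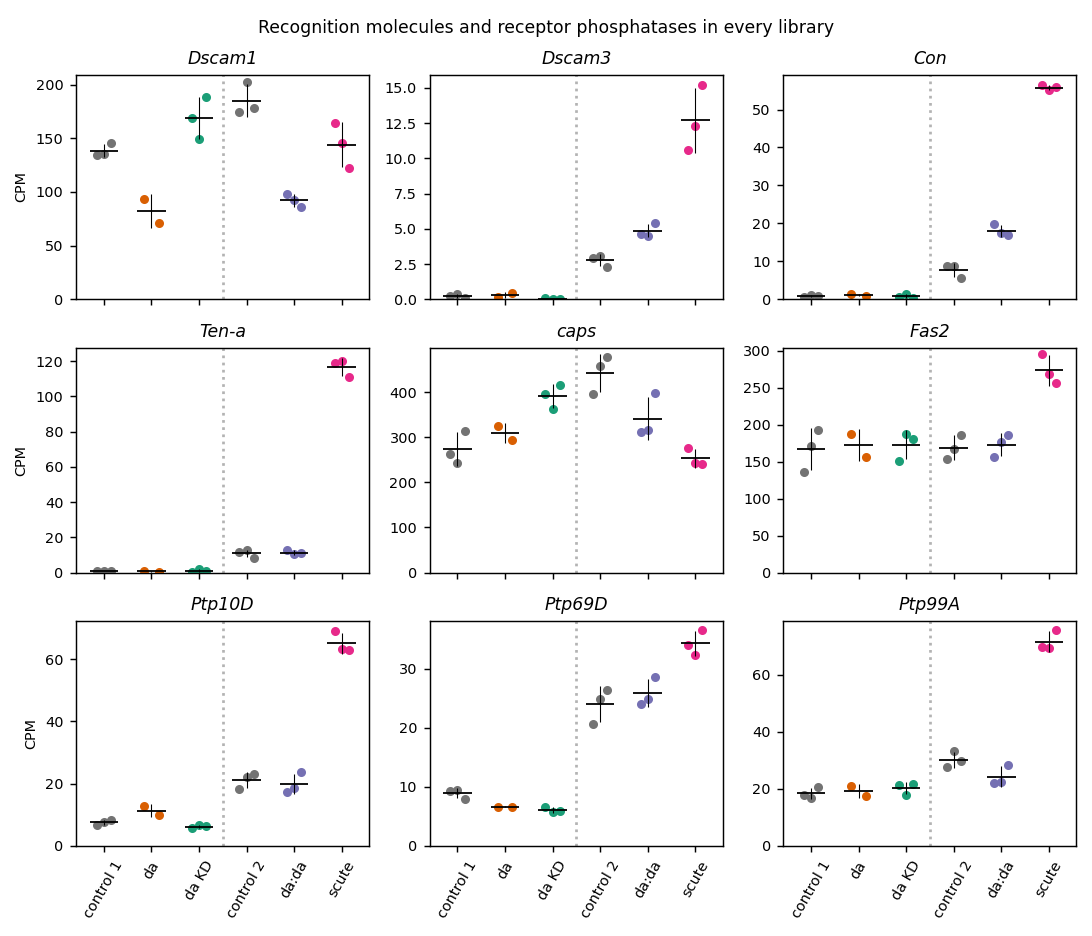
CPM of 9 recognition genes and receptor phosphatases in every library (points), with the group mean (horizontal line) and SD (vertical line), batches divided by the dotted line. Ten-a and the phosphatases stand apart in the scute libraries, Con is ordered control, da:da and scute, and Dscam1 is lowest with da and da:da within each batch.

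Direct tests between genotypes showed where responses differed. Between scute and da:da, 24 of 38 genes were higher with scute and 5 lower, 76.3% against 42.7% of all genes tested. Among all genes, 21.4% were higher and 21.2% lower. The 5 lower genes were robo2, Sema2a, drl, Dscam4 and caps. Between da and the da knock-down, 8 of 34 genes were higher with da and 2 lower, 29.4% against 30.1% of all genes. Over all genes tested, 16% were higher and 14.1% lower. The share was close to that of all genes, and the count of 10 was 5 without knock-down replicate 1 and 6 without knock-down replicate 2. Calls over all genes went from 2868 to 2281 and 2287 in these runs. The 8 were unc-5, Sema1a, Sema1b, Sema2b, drl, Dscam3, beat-Ib and Ptp10D, and the 2 were sli and Dscam1.

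Across batches, each genotype's change against its own controls was compared. Genotype and batch differ together in these tests, so their parts in a difference cannot be told apart. The da:da change differed from the da change for 4 of 38 genes, 10.5% against 6.99% of all genes. Among all genes, 2.5% were higher and 4.49% lower. The 4 guidance genes were drl, higher, and sli, Dscam2 and beat-Ib, lower, the last at an adjusted p of 0.0497. The count of 4 was 2 without control replicate 2 of batch 1, da replicate 2 or da:da replicate 1, and 7 without control replicate 3 of batch 1. Calls over all genes were 717, 680, 773 and 1057 in these runs, in the same order, against 985. The scute change differed from the da change for 18 of 38 genes, 15 higher and 3 lower, 47.4% against 28.5% of all genes. Over all genes tested, 12.6% were higher and 15.9% lower. Unc-5 had the largest of these differences (5.27 ± 0.40, adjusted p = 3.66e-08).

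Counting over the 4 comparisons with controls, 28 of the 38 genes (73.7%) passed at least once, against 53.9% of the 14236 genes tested in either batch, and 10 never did. These shares are not matched for expression level. In batch 2 the stricter filter (at least 5 CPM) kept 33 guidance genes in place of 38, and 7303 genes in all in place of 14190. Of the 28, 15 passed in 1 comparison, 8 in 2 and 5 in 3, and 0 in all 4. The 5 were unc-5, sli, drl, Dscam1 and Dscam3.

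Genes outside the list were described from 2 further lists. One held 50 other surface and secreted guidance molecules, and the other 27 intracellular effectors that link receptors to actin. Of the surface list, 34 of 49 tested rose and 3 fell with scute (75.5% called against 45% of all genes, median log2 change 1.18), and 9 of 49 rose and 4 fell with da:da (26.5% against 11.9%). With da 12 of 38 rose and 3 fell (39.5% against 22.9%), and in the knock-down 3 of 38 rose and 8 fell (28.9% against 20.4%). Over all genes tested, 22.8% rose and 22.2% fell with scute, and 5.39% rose and 6.52% fell with da:da. With da 13.5% rose and 9.36% fell, and in the knock-down 11.2% rose and 9.16% fell. The shares of the list and of all genes are not matched for expression level.

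The largest rise with scute in the surface list was that of stan, which encodes a cadherin of the Flamingo type, from 3.16 ± 0.754 to 132 ± 13.1 CPM (log2 change 5.38 ± 0.21, adjusted p = 6.06e-09). Beat-IV (4.12 ± 0.19, adjusted p = 2e-08) and side-VII (3.66 ± 0.16, adjusted p = 1.57e-08) rose as well. The homophilic adhesion gene Fas3 rose with scute from 15.8 ± 2.60 to 328 ± 34.5 CPM (adjusted p = 1.09e-08), with da:da to 311 ± 65.4 CPM (adjusted p = 4.96e-08) and with da from 14.8 ± 3.43 to 283 ± 17.9 CPM (adjusted p = 7.26e-06). Fas3 also rose in the knock-down, to 45.9 ± 13.2 CPM (1.63 ± 0.24, adjusted p = 0.00168). Comm, whose product keeps Robo off the cell surface, rose with da from 7.203 ± 1.21 to 25.5 ± 4.24 CPM (1.82 ± 0.24, adjusted p = 0.00065). The drl relative dnt rose with da:da, from 7.41 ± 1.58 to 30.1 ± 2.90 CPM (2.02 ± 0.16, adjusted p = 4.71e-06).

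Of the effectors, 7 of 27 rose and 11 fell with scute (66.7% called against 45% of all genes, median log2 change -0.10). These shares are not matched for level, as 0 of the 27 effectors had a mean under 1 CPM in batch 2 controls. With the stricter filter (at least 5 CPM), 5114 of all 7303 genes were called with scute. The GTPase gene Rho1 fell from 1542 ± 163 to 478 ± 48.2 CPM (-1.69 ± 0.12 on the log2 scale, adjusted p = 3.57e-07), as did the exchange factor gene trio from 511 ± 8.70 to 165 ± 19.5 CPM (-1.63 ± 0.11, adjusted p = 2.86e-07). In contrast, fax rose from 81.1 ± 10.1 to 400 ± 13.7 CPM (2.30 ± 0.11, adjusted p = 3.53e-08) and the adaptor gene Dab from 7.28 ± 1.54 to 45.6 ± 5.48 CPM (2.65 ± 0.19, adjusted p = 4.64e-07). With da, 11 of 26 effectors rose and 0 fell (42.3% against 22.9% of all genes), in the knock-down 5 of 26 rose and 3 fell (30.8% against 20.4%), and with da:da 5 of 27 rose and 1 fell (22.2% against 11.9%). Dab rose with da (1.97 ± 0.27, adjusted p = 0.000893) and fell in the knock-down (-2.37 ± 0.28, adjusted p = 0.000565). Mical, whose product acts downstream of Plexin A on actin, rose with da from 29.6 ± 0.797 to 68.7 ± 5.66 CPM (adjusted p = 0.000432) and with da:da from 59.9 ± 4.21 to 190 ± 4.63 CPM (1.67 ± 0.10, adjusted p = 7.71e-07).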

How the data were processed

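Raw counts for each gene were deposited; the authors obtained them with featureCounts 2.0.2 on exons of BDGP6.28 with annotation release 101, per the file headers, without a strand option. RNA was amplified before library preparation, per the labels' protocols. Reads were single and 50 nt long in batch 1 and paired and 150 nt in batch 2, where each mate was counted. The aligner's version is not given in the sources used here. The authors' deposited workbook holds DESeq2 results, as log2 fold change and adjusted p-value. A sheet of 17 count columns in it lacks gene names and was not used. Symbols came from a reference table for 17710 genes and from the authors' sheets for 38.

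With R 4.3.3, genes were filtered with filterByExpr, scaled with TMM and tested with the quasi-likelihood method of edgeR 4.0.16, with 1 mean per group and all libraries of a batch in 1 fit (9540 genes in batch 1, 14190 in batch 2, and 14083 in the fit of all 17 libraries used across batches). All single-gene adjusted p-values come from it unless the authors' table or DESeq2 1.42.0 is named. SE is the log2 change divided by the root of F. CPM and RPKM were computed from the deposited counts with TMM-scaled library sizes. Each replicate pooled about 100 guts, per the series' design text. Replicate numbers were checked as pairs by the correlation of same-numbered libraries' deviations from their group means: in the data, not by the labels, all 3 control and knock-down pairs of batch 1 were over 0.1 (0.187 to 0.287), and no other pair of groups met this. The code was tested on simulated data. Members and lists were chosen with earlier results of these data known. Members called in at least 1 comparison with controls are given in full. From the wider lists, at most 4 called genes per comparison with at least 5 CPM in 1 group could be named. No gene sequences are shown.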

Additional observations from a re-analysis of the deposited data

How the results depend on the processing

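Of 46 called changes of single guidance genes against controls, 31 kept direction and threshold under every alternative run and 15 lost the threshold under at least 1, while 0 reversed. Of 62 changes of the same 28 genes that did not pass, 10 passed under at least 1 alternative. The number of guidance genes called stayed within 1.5 times under DESeq2 size factors, no filter and the stricter filter (at least 5 CPM) in all 8 comparisons, and under the halving of batch 2 counts, chosen after the data were seen, in the 5 comparisons it touches. The exceptions were the fit of all 17 libraries, with 7 genes in place of 4 for da, and the DESeq2 test, with 7 in place of 4 for the da:da change minus the da change. The cause was not tested. The share of all genes called was higher with the stricter filter. For scute it was 5114 of 7303 genes in place of 6389 of 14190, and for da:da 1549 of 7303 in place of 1690 of 14190. With single replicates left out, the counts ranged from 2 to 5 for da, 2 to 10 for the knock-down, 8 to 10 for da:da, 24 to 26 for scute, 5 to 11 for da over knock-down, 26 to 30 for scute over da:da, 2 to 7 for the da:da change minus the da change and 14 to 19 for the scute change minus the da change. The calls over all genes also varied in these runs, from 1339 to 2118 for da and from 937 to 2163 for the knock-down.

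Only control and knock-down libraries of batch 1 met the pairing check, and there the block ended the call of unc-5, gave calls to NetB, otk, drl and trn, and changed no other knock-down call. For the other groups compared, the lowest and highest correlations of same-numbered libraries were -0.233 and -0.09 for control and da, -0.279 and -0.255 for da and knock-down, -0.042 and -0.006 for control and da:da, -0.11 and -0.014 for control and scute, and -0.041 and 0.159 for da:da and scute, so those numbers are not taken as pairs. With the replicate block the counts were 6 for da, 11 for the knock-down, 9 for da:da, 28 for scute, 11 for da over knock-down, 29 for scute over da:da, 6 for the da:da change minus the da change and 19 for the scute change minus the da change. Low counts limit unc-5, Dscam3, side, NetB and the Beat genes in batch 1.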
